A study of Drosophila melanogaster with 9 samples.

Results

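The transcriptome described here is that of control Kc167 cells, as measured in the 3 control libraries of a series of 9. The members were the columns that the labels give to control RNAi, and 14797 genes had a value in each. Kc167 is a cell line of Drosophila melanogaster derived from embryos, and it is widely used as a model of the fly's blood cells, the hemocytes. All 3 groups of the series received 15 µg of dsRNA per 2000000 cells and were collected on day 7. The other 6 libraries came from cells given dsRNA against ph and E(z), or against ph, E(z) and CtBP, and were not compared here. The labels do not name the sequence that the control dsRNA targets. These are RNAi-treated control cells and not untreated ones. The labels do not say whether the 3 replicates are separate cultures of the line, and the spread between them may be technical.

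Hemocytes of the fly fall into plasmatocytes, which engulf debris and microbes and secrete basement membrane, crystal cells, which carry the enzymes of melanisation, and lamellocytes, which encapsulate parasites. The GATA factor Serpent (srp) stands at the top of this lineage, with U-shaped (ush) as its partner. HOX genes give segments their identity, and Sex-lethal (Sxl) is the switch gene of female development in the fly.

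Levels are FPKM, fragments per kilobase of transcript scaled by library size, so that levels of different genes can be set side by side. Genes were ranked by the mean of replicates 2 and 3, called the level here, with replicate 1 beside it, because replicate 1 stood apart from the others. Values of a gene are given in the order of replicates 1, 2 and 3. A gene was abundant at a level of 100 FPKM or more, moderate from 10 to under 100 FPKM, and silent when it was under 0.5 FPKM in all 3 libraries. Every other gene was low.

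By these limits 1078 genes (7.29%) were abundant, 4976 (33.6%) moderate, 2912 (19.7%) low and 5831 (39.4%) silent. Abundant genes held 77.7%, 74.1% and 74.6% of the FPKM of replicates 1, 2 and 3, and silent genes held at most 0.0367% of any library. At the border of silent, nvy reached 0.4996 FPKM in its highest library and CG6738 reached 0.5006 FPKM. At the border of moderate, RluA-2 had a level of 9.998 FPKM and okr of 10.004 FPKM. At the border of abundant, CG8790 had a level of 99.925 FPKM and CG9297 of 100.009 FPKM. The distribution of FPKM had a main peak between 10 and 100 FPKM and a broad shoulder below it, with no empty gap at either limit.

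**Figure D1:**
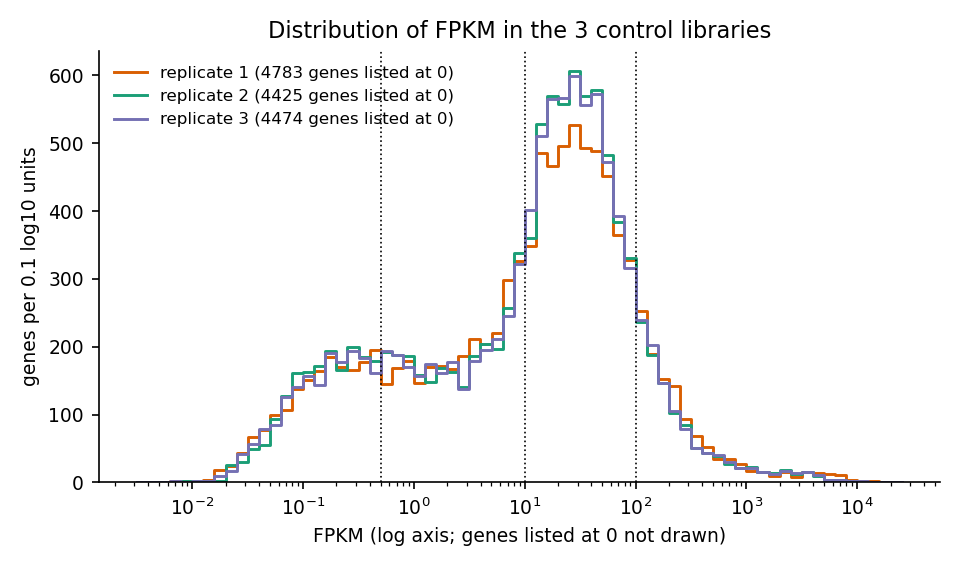
Number of genes (vertical axis) by FPKM on a log axis in each of the 3 control libraries, with dotted lines at 0.5, 10 and 100 FPKM. Replicates 2 and 3 overlie each other, and replicate 1 has fewer genes in the peak above 10 FPKM, with 4783 genes listed at 0 against 4425 and 4474 in replicates 2 and 3.

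A value of 0 did not always describe the cells. The 247 genes on unplaced or heterochromatin contigs and the 37 genes of the mitochondrial genome had 0 FPKM in each of the 3 libraries. Among them were genes that every cell uses, such as RpL15, a protein of the large ribosomal subunit, eIF-4B, a translation initiation factor, and rl, the fly's ERK kinase. These 284 genes were therefore not read as silent in the cells, and the 43 genes of the Y chromosome all lay among them. On the main chromosome arms 5547 of 14513 genes were silent (38.2%), and 3310 of these were at 0 in each library. Whole classes of short RNA were at 0 too. The 89 microRNA genes and 292 of 297 tRNA genes were listed at 0 in all 3 libraries, as were the 100 annotated ribosomal RNA genes. These zeros were likewise not read as levels. Shares over all genes in this text still count such zeros. Among 13080 protein-coding genes 7.74% were abundant, 36.7% moderate and 35.3% silent.

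The low values of each library fell on steps, as whole fragments would give. One fragment corresponded to about 0.102, 0.106 and 0.111 FPKM for an effective transcript length of 1 kb in replicates 1, 2 and 3. That step corresponds to about 9800000, 9430000 and 9050000 fragments per library, in the scale of the values. The step and the length taken off were chosen to put the most low values near a whole number of fragments. With that choice 74.1% to 75.5% of the low values lay within 0.08 of one. Without steps the share would be 16% for a step fixed beforehand, which is not a like baseline for a fitted one. At 0.5 FPKM an effective length of 1 kb thus rested on 4.5 to 4.9 fragments, and at 10 FPKM on 90.5 to 98.0 fragments. The effective length was the transcript length less 200 bases in replicates 1 and 3 and 220 in replicate 2, so a transcript of 1 kb rested on fewer. Step and length were fitted together, so small differences in step between libraries are not read as differences in depth. Whether a silent gene has no transcript or is transcribed at a low level in the cells could not be told at this depth.

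The head of the ranking was the translation machinery. Of the 100 highest genes 69 had symbols of cytosolic ribosomal proteins, and of the 30 highest 25 did. RpL21 was the highest gene of all, at 22061, 11786 and 11537 FPKM. RpL41 had 13272, 8018 and 9123 FPKM, and RpL29 had 11276, 6555 and 6981 FPKM. RpLP2, of the ribosomal stalk, had 12795, 6324 and 6356 FPKM. In these 4 genes replicate 1 was the highest library, while RpL35 was lower there, at 5155, 7059 and 7250 FPKM. Together the 88 ribosomal protein genes took 40.8% of the FPKM of replicate 1 and 31.6% and 31.5% of replicates 2 and 3. The FPKM of all genes summed to 908290 in replicate 1 and to 735724 and 749331 in replicates 2 and 3, so the libraries do not share 1 total.

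**Figure D2:**
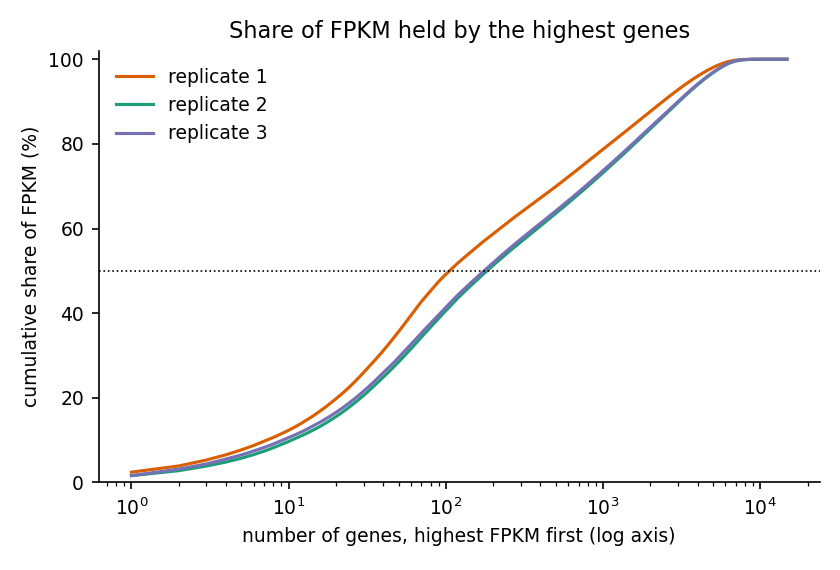
Cumulative share of FPKM (vertical axis, in percent) against the number of genes counted from the highest FPKM down (log axis) in each control library. The dotted line at 50% is reached with 106 genes in replicate 1 and with 183 and 175 genes in replicates 2 and 3.

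Of the 88 ribosomal protein genes 79 were abundant, 3 moderate, 4 low and 2 silent. The exceptions were the second copies of duplicated genes, apart from RpL15, whose 0 gives no level. RpS15Ab had 54.0, 45.9 and 43.8 FPKM, RpS5b had 115.003, 43.5 and 41.1 FPKM, and RpS19b had 42.5, 19.5 and 22.5 FPKM. RpS10a, RpL37b and RpL22-like had levels of 3.66, 1.45 and 0.435 FPKM, RpS28a was listed at 0 in replicates 2 and 3 with 7.79 FPKM in replicate 1, and RpL10Aa was at 0 throughout. Reads of near-identical copies may be split between them in the authors' counting, so the split within a pair is uncertain. The Qm gene, RpL10 in the dm6 annotation, has a name outside the ribosomal pattern and had 2665, 1639 and 1673 FPKM.

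Of the 25 highest genes outside the ribosomal pattern, several act in translation. Ef1alpha48D, the elongation factor that brings tRNAs to the ribosome, was the highest protein-coding one and had 7188, 8669 and 8721 FPKM. Ef2b, the translocation factor, had 4213, 3830 and 3772 FPKM, and the helicase eIF-4a had 4416, 2808 and 2799 FPKM. Rack1, a protein of the small ribosomal subunit, had 3586, 2167 and 2056 FPKM. The subunits of the nascent polypeptide-associated complex, which meets new proteins at the ribosome, were also here: bic had 4203, 2532 and 2495 FPKM and Nacalpha 3309, 1775 and 1800 FPKM. Of the 10 listed translation factors 9 were abundant, the other being Ef1alpha100E, a second copy of the elongation factor gene, at 11.99, 14.5 and 16.1 FPKM.

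Proteins of the actin cytoskeleton made up a further part of the head of the ranking. Act5C, a cytoplasmic actin, had 3921, 2740 and 2712 FPKM. The profilin chic had 1728, 2852 and 2919 FPKM, the actin-binding protein cib had 1092, 2428 and 2528 FPKM, and Chd64, of the calponin family, had 2341, 2676 and 2653 FPKM. Of the 6 actin genes the 2 cytoplasmic ones were abundant, with Act42A at 519, 669 and 664 FPKM. The muscle actins Act57B, Act79B and Act88F were silent, and Act87E was low at 0.442, 0.789 and 0.239 FPKM. Among 8 tubulins alphaTub84B (1031, 757 and 787 FPKM), betaTub60D (652, 675 and 646 FPKM), betaTub56D (816, 510 and 523 FPKM) and betaTub97EF (223, 104 and 107 FPKM) were abundant. The testis tubulin betaTub85D was at 0 in every library, and the maternal alphaTub67C was silent.

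The other genes of that rank covered chromatin, signalling and housekeeping roles. The chromatin proteins were Df31 (4523, 3945 and 4057 FPKM) and HmgD (2256, 1806 and 1884 FPKM). Calmodulin (Cam), the calcium sensor, had 644, 3671 and 3708 FPKM and was the protein-coding gene of this group with the largest difference between replicate 1 and the others. The adaptor 14-3-3epsilon had 2273, 2692 and 2691 FPKM, the membrane anchor Akap200 had 680, 1532 and 1529 FPKM, and fax had 636, 1774 and 1777 FPKM. The transcription factor crc, the fly's ATF4, had 1664, 1598 and 1655 FPKM. CG3305 (Lamp1), a lysosomal membrane protein, had 1381, 1737 and 1687 FPKM, Vha16, a subunit of the proton pump of acidic organelles, had 1129, 1458 and 1485 FPKM, and the autophagy protein Atg8a had 1272, 1434 and 1406 FPKM. Hsc70-4, the constitutive chaperone, had 2247, 1444 and 1405 FPKM.

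The remaining 3 of the 25 were very short RNAs whose values did not hold between libraries. The gene snmRNA:400, of 52 bases, had 0, 5955 and 12043 FPKM, snmRNA:649, of 59 bases, had 9564, 0 and 4375 FPKM, and snoRNA:Me28S-A1322, of 73 bases, had 0, 2236 and 1130 FPKM. Across all genes 118 were listed at 0 in one library and at 10 FPKM or more in another, and 107 of these had a longest transcript under 200 bases. In all, 34 abundant genes were of that length.

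Genes of blood cell identity ranged from abundant to silent. Of 27 plasmatocyte markers 11 were abundant, 6 moderate, 7 low and 3 silent, with a median level of 60.6 FPKM beside 2.47 FPKM over all genes. Nplp2, a neuropeptide-like precursor made in hemocytes, was the highest, at 1754, 1043 and 1124 FPKM. The hemocyte surface protein Hemese (He) had 405, 291 and 262 FPKM, Glutactin (Glt), of basement membranes, had 156, 345 and 348 FPKM, and the growth factor receptor Pvr, on which hemocyte survival depends, had 108, 147 and 145 FPKM. Hemolectin (Hml), a clotting protein widely used to mark plasmatocytes, had 8.06, 173 and 164 FPKM. It stood in the abundant range in replicates 2 and 3 and in the low range in replicate 1, and its longest transcript has 11756 bases (long transcripts were lower in that library).

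Proteins of the basement membrane, which plasmatocytes lay down, were high as a group. Of the 10 listed genes 5 were abundant and 3 moderate. The laminin subunits LanA (30.7, 345 and 349 FPKM), LanB1 (86.1, 239 and 242 FPKM) and LanB2 (225, 357 and 362 FPKM) were abundant, as were BM-40-SPARC (575, 441 and 451 FPKM) and papilin (Ppn; 68.2, 134 and 126 FPKM). The collagen IV chains Cg25C (81.4, 83.6 and 77.8 FPKM) and vkg (54.2, 67.4 and 63.4 FPKM) were moderate, as was peroxidasin (Pxn; 44.5, 40.6 and 39.5 FPKM). Nidogen (Ndg) and perlecan (trol), which belong to the same matrix, were silent, at no more than 0.0687 and 0.368 FPKM. Since 8 of these genes are also plasmatocyte markers, the marker list was split. Those 8 had a median level of 185 FPKM. The other 19 markers had a median level of 7.27 FPKM, beside 2.47 FPKM over all genes, and 9 of them were at 10 FPKM or more, a share near the 40.9% of all genes.

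Receptors for engulfment were uneven. The scavenger receptor croquemort (crq) had 20.4, 38.7 and 39.8 FPKM and draper (drpr), the receptor for dying cells, had 62.0, 62.3 and 59.0 FPKM. The bacterial receptors eater (0.0991, 7.60 and 6.93 FPKM) and nimC1 (3.82, 4.21 and 3.901 FPKM) were low, and nimC2 was at 0 in all libraries. The scavenger receptors Sr-CI, Sr-CII and Sr-CIII were low as well, with levels of 5.44, 1.248 and 0.428 FPKM. The glial and hemocyte factors gcm and gcm2, which act early in plasmatocyte formation, were silent.

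Some transcription factors of the blood lineage were abundant by level, namely srp, ush and zfh1, all under 100 FPKM in replicate 1. Others were silent, among them lz, gcm, gcm2 and kn. Serpent (srp) had 77.7, 164 and 165 FPKM, and its partner ush had 53.1, 120 and 125 FPKM. The zinc-finger factor zfh1 had 23.7, 163 and 154 FPKM. Of the other GATA genes, GATAd was moderate at 4.22, 35.5 and 33.4 FPKM, pnr was low at 0.477, 2.23 and 2.46 FPKM, GATAe of the gut was silent, and grn was at 0. All 4 GATA or partner genes above the silent limit were lower in replicate 1, beside 4236 of 8778 genes over all. Their median transcript length was 4149.5 bases, and long transcripts were lower in that library.

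**Figure D3:**
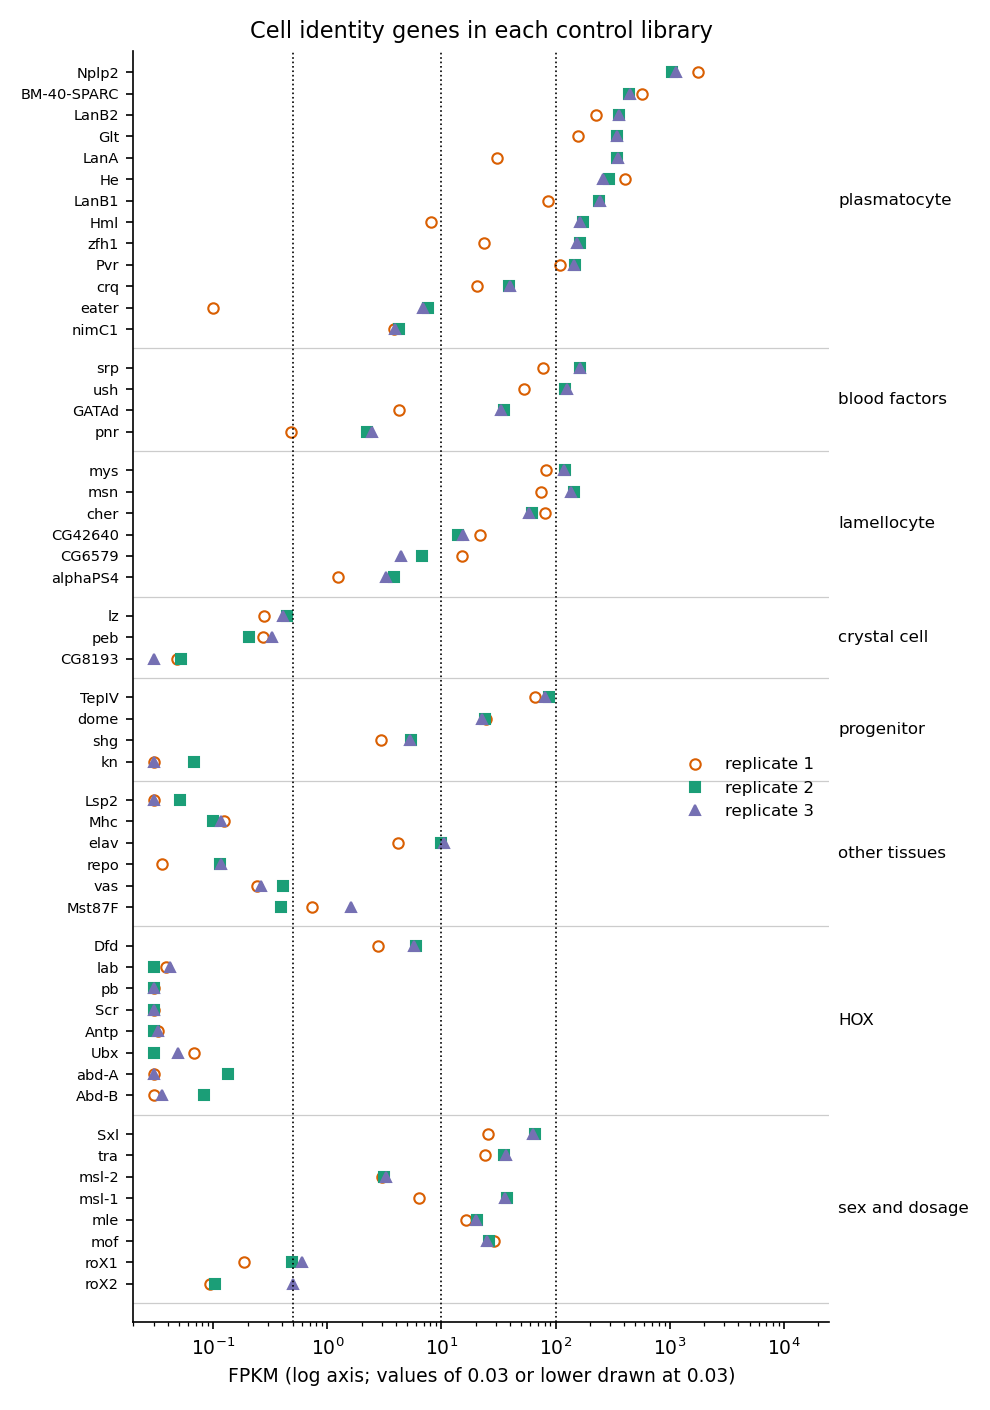
FPKM on a log axis of genes that mark cell identity, sex and segment in each control library (replicate 1 open circles, replicate 2 squares, replicate 3 triangles), with dotted lines at 0.5, 10 and 100 FPKM. Plasmatocyte genes reach 1754 FPKM with replicate 1 often to the left, crystal cell genes and 7 of 8 HOX genes lie under 0.5 FPKM, and Dfd is the HOX gene above it.

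Markers of the other blood cells differed by type, with 4 of 6 lamellocyte genes (66.7%) at 10 FPKM or more, beside 17 of 27 plasmatocyte genes (63.0%). All 3 measured crystal cell genes were silent, with the lineage factor lz at 0.276, 0.444 and 0.412 FPKM and the prophenoloxidase gene CG8193 (PPO2) at no more than 0.0517 FPKM. PPO1 was not analysed here. Of 6 lamellocyte genes 2 were abundant and 2 moderate, but the abundant ones were of broad use: the integrin mys had 82.4, 120 and 119 FPKM and the kinase msn 74.9, 145 and 136 FPKM. The filamin cher had 80.9, 62.7 and 58.8 FPKM. The more selective lamellocyte genes were lower, with CG42640 (PPO3) at 21.7, 14.0 and 15.5 FPKM, CG6579 (atilla) at 15.2, 6.78 and 4.46 FPKM and alphaPS4 at 1.24, 3.86 and 3.25 FPKM. In blood progenitors TepIV marks the cells, and it had 65.9, 88.1 and 80.8 FPKM. The cytokine receptor dome had 24.6, 24.3 and 22.5 FPKM, shg (E-cadherin) was low at 2.93, 5.38 and 5.29 FPKM, and the niche factors kn and Antp were silent.

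Genes that mark other tissues were mostly silent. Of 99 markers in 11 lists 58 were silent (58.6%, beside 39.4% of all genes and 35.3% of protein-coding ones), 30 low, 11 moderate and 0 abundant. Defining genes were near 0: the fat body storage protein Lsp2 was at most 0.0511 FPKM, muscle myosin Mhc at most 0.124 FPKM, the glial factor repo at most 0.117 FPKM and the germline helicase vas at most 0.413 FPKM. The neuronal RNA-binding protein elav was the exception, at 4.18, 9.86 and 10.6 FPKM. Other neuronal genes differed among themselves, with the active zone protein brp at 2.35, 12.4 and 12.8 FPKM and synaptotagmin (Syt1), VGlut and Gad1 silent.

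The 11 markers at 10 FPKM or more, elav and brp among them, were spread over 6 lists. AGO3, of the piRNA pathway, was the highest, at 15.5, 50.4 and 55.7 FPKM, and its partner aub had 25.5, 23.6 and 26.0 FPKM, while piwi had 2.66, 2.44 and 2.95 FPKM. In the dm6 annotation aub overlaps CG16833, at a level of 19.9 FPKM on the opposite strand. The germline gene bgcn had 19.4, 14.5 and 13.8 FPKM, but it overlaps wibg, at a level of 25.5 FPKM on the same strand. The others were the glial receptor moody (2.79, 11.6 and 11.7 FPKM), the ion pump subunit nrv2 (47.4, 50.1 and 49.2 FPKM), the glutamine synthetase Gs2 (40.5, 44.4 and 48.2 FPKM), bol (2.04, 21.2 and 19.6 FPKM), the muscle factor Mef2 (13.4, 20.4 and 17.7 FPKM) and the uptake receptor CG32702 (Cubn; 10.2, 18.0 and 17.2 FPKM). Of 7 glial markers 3 (42.9%) were at 10 FPKM or more, a share near the 40.9% of all genes, and the defining factor repo was silent. Fat body, ovarian follicle, trachea, epidermis and gut had 0.

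The sensory families were a second measure of what such cells leave off. Of 228 odorant, gustatory and ionotropic receptor and odorant binding protein genes 182 were silent (79.8%, beside 39.4% of all genes). In these families 4 genes reached 10 FPKM, a level that 40.9% of all genes reached. All 4 overlap another gene in the dm6 annotation, on the opposite strand: Or43b (10.6, 13.0 and 12.5 FPKM) overlaps lin19, at a level of 106 FPKM, Gr94a overlaps p53, at 46.6 FPKM, Obp44a overlaps Pabp2, at 291 FPKM, and Ir76a overlaps CG14102, at 5.32 FPKM. Strand is not stated for these libraries, so reads of such pairs cannot be told apart. Of 99 cuticular protein genes 77 were silent (77.8%), and of 16 Jonah gut proteases 15 were (93.8%), beside 39.4% of all genes. The 2 moderate cuticular genes were Cpr49Ac at 7.28, 30.8 and 33.1 FPKM and Cpr67Fb at 19.999, 20.8 and 19.7 FPKM.

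**Figure D4:**
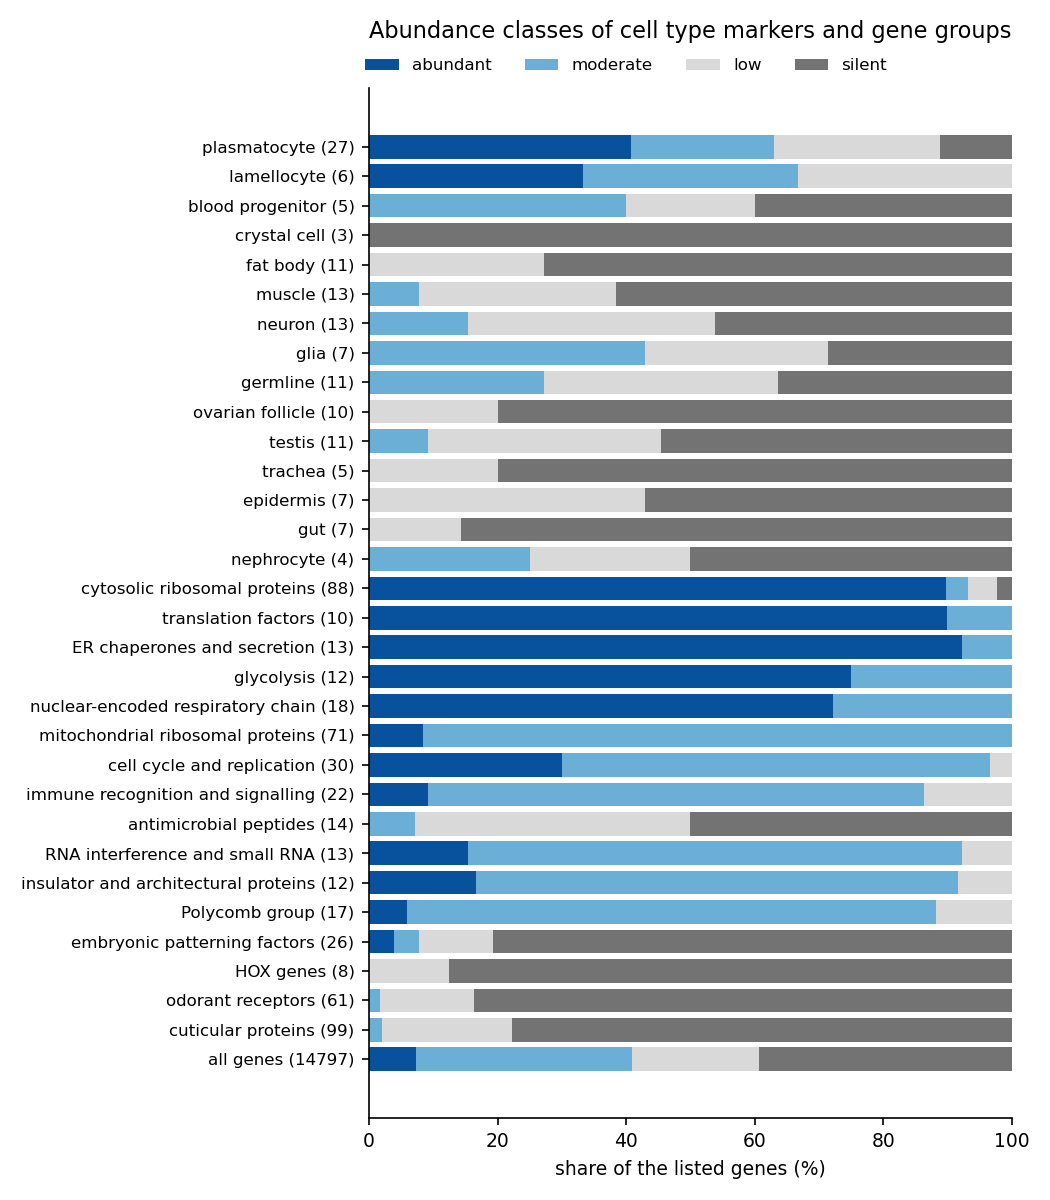
Share of the genes of each list (number of genes in brackets) that were abundant, moderate, low and silent, in percent of the list, with all 14797 genes in the last row. Plasmatocyte and lamellocyte markers and the housekeeping groups have mostly abundant and moderate members, and 7 of the 11 lists of other tissues, patterning factors, HOX genes and odorant receptors have mostly silent ones. Glia, germline, neuron and nephrocyte lists were 50% silent or less.

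Among HOX genes Deformed (Dfd), of the head segments, was the exception. Dfd had 2.77, 5.92 and 5.77 FPKM. The other 7 of the 8 were silent (87.5%, beside 39.4% of all genes). The genes lab, pb, Scr, Antp, Ubx, abd-A and Abd-B reached at most 0.135 FPKM in any library, in abd-A, and pb and Scr were at 0. Of 26 embryonic patterning factors 21 were silent (80.8%, beside 39.4% of all genes). Among them were the gap genes hb, Kr and tll and the segment genes en and ftz, all at 0. The pair-rule gene h was abundant at 92.7, 180 and 179 FPKM, and dl, the nuclear factor of the Toll pathway, was moderate at 40.9, 46.8 and 45.8 FPKM.

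Of 12 genes of sex determination and dosage compensation 8 were moderate and 4 low. Sxl had 25.4, 65.6 and 63.9 FPKM and its splicing target tra had 24.2, 35.5 and 36.7 FPKM. The transcript of msl-2, whose protein is made in males and which Sxl represses in females, was low at 3.03, 3.12 and 3.28 FPKM. The RNAs that paint the male X chromosome were at the border of silent, with roX1 at 0.185, 0.495 and 0.600012 FPKM and roX2 at 0.0928, 0.103 and 0.502 FPKM. The other dosage compensation proteins were present, with mof at 28.6, 26.1 and 24.8 FPKM, msl-3 at 29.1, 25.3 and 22.2 FPKM, mle at 16.4, 20.4 and 19.95 FPKM and msl-1 at 6.36, 37.2 and 35.8 FPKM. The splicing partner tra2 had 39.0, 30.3 and 29.1 FPKM, and of the genes at the end of the pathway fru had 20.3, 38.9 and 40.6 FPKM and dsx 1.87, 1.48 and 1.89 FPKM. FPKM per gene does not show which splice form of Sxl or tra was made.

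Immune signalling genes were mostly moderate, and antimicrobial effectors were silent or low with 1 exception. Of 22 recognition and signalling genes 19 were at 10 FPKM or more (86.4%, beside 40.9% of all genes). The Toll ligand spz had 43.7, 141 and 131 FPKM and the inhibitor cact 74.6, 139 and 133 FPKM. The receptor PGRP-LE had 44.9, 85.4 and 90.9 FPKM and the IKK subunit key 59.4, 66.6 and 69.7 FPKM. Of 14 antimicrobial peptide genes 7 were silent (50%, beside 39.4% of all genes), 6 low and 1 moderate. The moderate one was drosomycin (Drs) at 12.8, 10.6 and 11.3 FPKM. Several of these transcripts are short, with 339 bases for CecA1 and 268 for Mtk. With 200 to 220 bases taken off for the effective length, silent and low can differ there by very few fragments. Diptericin (Dpt), AttC, CecB and Mtk were at 0 in every library. Of 7 JAK-STAT genes 4 were moderate, and the transcription factor Stat92E was abundant at 50.6, 147 and 147 FPKM, while the cytokine upd3 had 11.4, 23.7 and 23.3 FPKM and os (upd1) was silent. The ferritin subunits Fer1HCH (794, 503 and 502 FPKM) and Fer2LCH (825, 977 and 1014 FPKM), which store iron, were abundant.

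Of 19 listed growth factor and morphogen receptors 1 was abundant, Pvr, and 7 were moderate. The share at 10 FPKM or more (42.1%) was near that of all genes (40.9%), and 3 were silent (15.8%, beside 39.4% of all genes). The moderate ones included the activin receptor babo (15.3, 50.3 and 55.5 FPKM), the type II receptor put (33.6, 44.9 and 43.4 FPKM) and sax (30.01, 30.7 and 29.1 FPKM). The EGF receptor gene Egfr was silent at 0.0230, 0.0492 and 0.0498 FPKM, and so were the FGF receptors btl and htl. Notch (N) was low at 1.67, 4.47 and 4.86 FPKM.

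Growth and secretion genes were high across their lists. Of 13 endoplasmic reticulum genes 12 were abundant, with calreticulin (Crc) at 1095, 834 and 849 FPKM and the disulphide isomerases ERp60 and Pdi at levels of 650.3 and 467 FPKM. Of 12 glycolytic enzymes 9 were abundant, led by Gapdh2 (1284, 496 and 508 FPKM) and the lactate dehydrogenase ImpL3 (1474, 465 and 500 FPKM). Of the 12, 11 were higher in replicate 1, beside 4542 of 8778 genes over all. Their median transcript length was 2001 bases. Among protein-coding genes at a level of 10 FPKM or more, 26.1% of those over 1000 and up to 2000 bases were lower in replicate 1. From there up to 3000 bases 40.7% were. The list of 18 nuclear genes named for the respiratory chain also holds ATP synthase subunits, the ADP/ATP carrier sesB and the membrane channel porin. Of these 18, 13 were abundant and 5 moderate, with sesB the highest at 1009, 703 and 683 FPKM. All 71 mitochondrial ribosomal proteins reached 10 FPKM or more. Of 30 cell cycle genes 29 were at 10 FPKM or more (96.7%, beside 40.9% of all genes). The highest were the ribonucleotide reductase subunit RnrS (1382, 805 and 803 FPKM) and mus209 (PCNA, at 390, 381 and 386 FPKM).

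The proteins that package and regulate chromatin were mostly moderate. Of 12 measured insulator and architectural genes 11 reached 10 FPKM (91.7%, beside 40.9% of all genes). The highest, mod(mdg4), had 312, 278 and 285 FPKM, and Trl (GAGA factor) had 112, 110 and 113 FPKM. Cp190 had 13.5, 97.6 and 98.9 FPKM and CTCF 30.1, 38.3 and 38.3 FPKM. Of 17 measured Polycomb group genes 15 reached 10 FPKM (88.2%, beside 40.9% of all genes), led by Caf1 at 171, 152 and 161 FPKM. The genes that the other groups of the series target had baseline values of 4.64, 18.9 and 18.1 FPKM for ph-p, 1.26, 5.72 and 4.87 FPKM for its near-identical copy ph-d and 43.4, 37.4 and 31.2 FPKM for E(z). CtBP, a corepressor gene, was abundant at 189, 202 and 205 FPKM. Of 13 RNAi and small RNA genes 12 reached 10 FPKM (92.3%, beside 40.9% of all genes). AGO2 had 147, 272 and 263 FPKM and Dcr-2 10.8, 40.7 and 43.2 FPKM.

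Ecdysone receptor and response genes were moderate as a group, with 8 of 11 moderate and Eip71CD abundant at 286, 227 and 202 FPKM. The receptor EcR had 6.65, 17.4 and 15.3 FPKM and its partner usp 19.2, 19.0 and 19.0 FPKM. Of 21 detoxifying glutathione S-transferases 13 reached 10 FPKM (61.9%, beside 40.9% of all genes), led by GstD1 at 931, 401.4 and 385 FPKM. Among 86 genes with a Cyp number 18 reached 10 FPKM (20.9%) and 31 were silent (36.0%, near the 39.4% of all genes). The highest P450 was Cyp6a8 at 63.1, 55.1 and 47.9 FPKM, since Cyp1, at 649, 440 and 435 FPKM, is a cyclophilin. Of 16 heat shock genes 5 were abundant, 3 moderate, 2 low and 6 silent. Besides Hsc70-4 and Hsp83 the abundant ones were small heat shock proteins, with Hsp23 at 424, 385 and 366 FPKM and Hsp26 at 231, 303 and 277 FPKM, and Hsp27 at 114, 206 and 202 FPKM. The highest inducible Hsp70 copy, Hsp70Bb, had 2.18, 5.08 and 6.27 FPKM, a value uncertain because the copies are near-identical.

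Silent protein-coding genes formed 1516 runs along the chromosomes, single genes included, with a median of 2 genes. Whether the runs are longer than the silent share alone would give was not tested. Of 12997 protein-coding genes on the main arms 4535 were silent, and 64 unbroken runs of 10 or more held 1031 of them, by the gene order of the dm6 annotation. The longest run was the histone cluster on chromosome 2L (dm6 21423737 to 21541681), with 105 genes at 0. Those genes are near-identical repeats, so their zeros give no level, while the single-copy variant genes were abundant: His2Av had 924, 1028 and 1038 FPKM, His3.3B had 1347, 999 and 949 FPKM and His4r had 1349, 770 and 802 FPKM. The second run held 30 genes on 3R (dm6 6109642 to 6341424), 19 of them of the Osiris (Osi) family, none over 0.474 FPKM. A run of 24 genes on X (dm6 14000210 to 14199958) held 13 Stellate (Ste) repeats and lay beside ben, at a level of 118 FPKM. By arm the silent share of protein-coding genes was 30.8% on X, 40.2% on 2L, 33.3% on 2R, 34.5% on 3L, 35.2% on 3R and 26.0% of the 77 genes on chromosome 4. Without the histone repeats the share on 2L was 37.4%.

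Replicate 1 differed from the others in a way that followed transcript length. Of 6054 genes at a level of 10 FPKM or more, 93.4% were within 1.2-fold between replicates 2 and 3, but 25.1% were within 1.2-fold between replicate 1 and the level. Among 8778 genes compared on the log2(FPKM + 0.5) scale, 44 were 4-fold or more higher and 476 were 4-fold or more lower in replicate 1, beside 57 and 54 for replicate 2 over replicate 3. Across genes, Pearson's r of log2 values was 0.89 for replicate 1 with replicates 2 and 3 and 0.95 for replicate 2 with 3, as a description of libraries that share one gene set.

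The median log2 ratio of replicate 1 over the level was 0.49 for 874 protein-coding genes with a longest transcript of up to 1000 bases and fell along the length bins to -2.24 for 81 genes over 10000 bases. For replicate 2 over 3 it stayed between -0.03 and 0.03 in every bin. Across the 5816 genes Spearman's rho of length and ratio was -0.55 for replicate 1 and 0.10 for replicate 2 over 3. Of 302 such genes that were 4-fold or more lower in replicate 1, 69.2% had a transcript of 4000 bases or more, beside 18.4% of all. The cause of this shift was not tested.

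**Figure D5:**
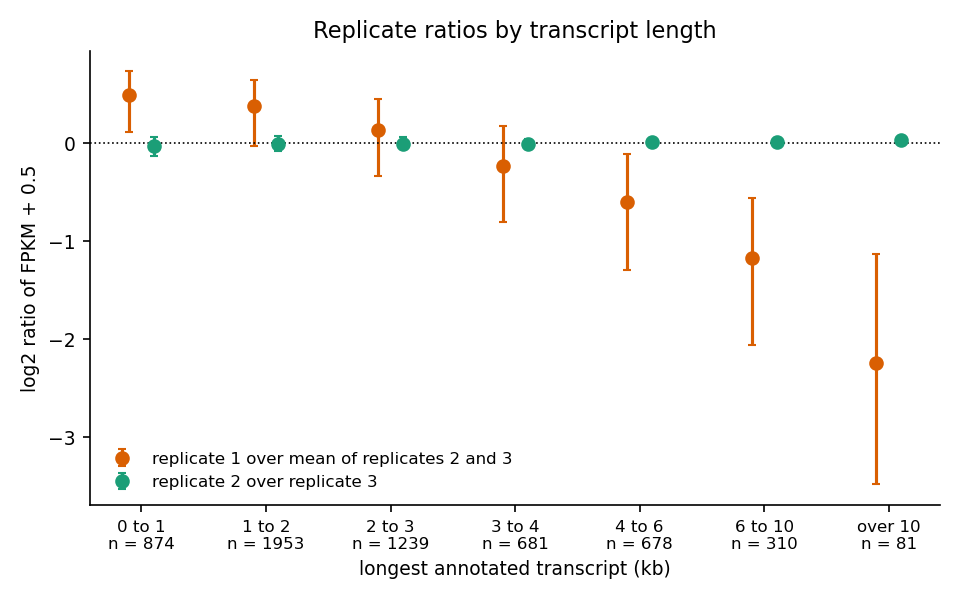
Median log2 ratio of FPKM + 0.5 (vertical axis, bars from the lower to the upper quartile of genes) by length of the longest annotated transcript, for protein-coding genes at a level of 10 FPKM or more. Replicate 1 over the mean of replicates 2 and 3 goes from 0.49 in the shortest bin to -2.24 in the longest, and replicate 2 over replicate 3 stays near 0.

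Of the 10 named protein-coding genes with the lowest ratios, 9 had transcripts of 4775 to 20622 bases. The other was the seminal fluid protein gene Sfp96F, of 168 bases, at 0, 18.6 and 18.8 FPKM. That length is under the 200 to 220 bases taken off for the effective length. Its values may thus rest on very few fragments, as for the short RNAs. The transcriptional regulator spen, with a transcript of 20622 bases, had 0.693, 64.4 and 64.1 FPKM, trx, a trithorax group methyltransferase gene of 14052 bases, had 0.701, 29.6 and 29.6 FPKM, and the chromatin remodelling factor E(bx) had 2.11, 69.6 and 69.2 FPKM. By class, replicate 1 would place these 3 among the low genes, where replicates 2 and 3 place them among the moderate ones. On the other side, the glycolytic genes ImpL3, Tpi (329, 121 and 130 FPKM) and Gapdh2, with transcripts of 1778, 1374 and 1443 bases, were among the most raised named protein-coding genes. By the naming rule, the 10 largest ratios each way over all gene types belonged to snoRNAs, snmRNAs and tRNAs, each listed at 0 in a library, from 471 FPKM in replicate 1 and 0 in the others for snoRNA:Me28S-C3227b to the values of snmRNA:400 above. No fold is given for them.

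Genes of chromosome 4 were lower in replicate 1 at both short and long transcripts. The median log2 ratio over the level was -1.88 for its 47 protein-coding genes at 10 FPKM or more, beside 0.08 to 0.21 for the other arms. Among transcripts of up to 4000 bases it was -0.86 on chromosome 4 (24 genes) and 0.20 to 0.35 elsewhere, and among longer ones -3.18 (23 genes) and -0.995 to -0.53 elsewhere. The difference was not tested, since it rests on 1 library. In replicates 2 and 3 the median of these 47 genes was 41.8 and 42.7 FPKM, against 9.52 FPKM in replicate 1.

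The classes were compared between replicate 1 and the level. Of the 1078 abundant genes 877 were at 100 FPKM or more in replicate 1, and 294 genes that were not abundant by level were at 100 FPKM or more there. Of the 23 abundant genes under 10 FPKM in replicate 1, 6 were protein-coding. The 100 highest genes by level shared 86 with the 100 highest of replicate 1, and replicates 2 and 3 shared 96.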

How the data were processed

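RNA was measured in 3 control RNAi libraries. Per the labels' protocols, total RNA was extracted with Trizol and sequenced on an Illumina HiSeq 2000. The authors deposited FPKM values per gene and library. Per the submitters' processing notes, TopHat2 2.1.0, Bowtie2 2.2.6, Cufflinks, Cuffdiff and R 3.2.3 were used with the dm6 build. The deposited positions are not those of dm6: genes start a median of 4174280 bases further on in dm6 on 3R, and within 1 kb for 79.6% of genes on 2L. Positions, gene types and transcript lengths therefore come from Ensembl's dm6 annotation (release 115), matched by FlyBase identifier for 13462 genes and by symbol for 647, with 688 unmatched. No source used here gives strand, library selection or read numbers, and depth was estimated from the steps of low values.

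The files were processed with Python 3.11.15, pandas 2.3.3, numpy 2.4.6 and scipy 1.17.1. No groups were compared and no test was made. Ratios used a pseudocount of 0.5 FPKM. The members and lists were chosen with earlier results of these data known. Of the listed genes 4 were not matched and not analysed here. Named genes were the 25 highest outside the ribosomal pattern, the 5 highest ribosomal ones, up to 4 per list, all of lists of 8 or fewer, the defining markers, the HOX and sex genes and the 10 largest ratios of replicate 1 each way, and others are examples chosen after their values were seen. Class assignment and the depth estimate were tested on simulated data. Shares of promoter motifs were planned and not run, as no promoter sequence was used here. Alternatives covered the level, the scaling, the thresholds, the pseudocount, the filter and leaving out each library.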

Additional observations from a re-analysis of the deposited data

How the results depend on the processing

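No paired analysis was possible because no groups were compared. Of 52 alternatives, 50 left the value within 1.5 times the main one or within its spread, and 2 did not. A limit of 50 FPKM gave 2277 abundant genes and one of 200 FPKM gave 485, beside 1078 at 100 FPKM. Some of the 50 could not move. Silent genes do not depend on the level, leaving out replicate 1 keeps the level, and dropping the filter adds no gene past 4-fold. The ribosomal share was 35.1% with the mean of all 3 libraries, beside 31.6%. It was held against a spread between libraries that replicate 1 itself widens. Leaving out each replicate gave 1062 to 1081 abundant, 4954 to 4976 moderate and 5969 to 6025 silent genes. Replicate 1 did not enter the level in any of these settings. The abundant and moderate counts therefore cannot show how far they depend on that library. By itself, replicate 1 had 1171 genes at 100 FPKM or more and 4450 from 10 to under 100 FPKM. With the mean of all 3 libraries as the level, 1111 genes were abundant and 4923 moderate. Scaling each library to the same total (TPM) gave 1523 abundant genes. Silent genes numbered 4263 at a limit of 0.1 FPKM and 6486 at 1 FPKM. Plasmatocyte markers at 10 FPKM or more stayed at 17 in the 5 alternatives run, and those of other tissues ranged from 8 with the mean of all 3 libraries to 11. Genes past 4-fold in replicate 1 numbered 520, and 440 to 751 with pseudocounts of 1 and 0.1 FPKM. Chosen after seeing the data, leaving out transcripts under 200 bases gave 1044 abundant genes, leaving out the contigs at 0 gave 5547 silent ones, and protein-coding genes alone gave 382 past 4-fold. Depth limits the reading of values under 0.5 FPKM, and a value of 0 on the contigs named above or in repeated genes is not a measurement.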

Other observations

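Of 41 proteasome genes by name 13 were abundant, 16 moderate, 2 low and 10 silent. Prosbeta2, a core subunit, was the highest, at 210, 156 and 166 FPKM in replicates 1, 2 and 3. The silent ones included Rpt4R, Prosalpha6T and Prosbeta2R1, whose names mark second copies of a subunit gene. Prosalpha1, also a core subunit, was low at 1.05, 0.563 and 0.569 FPKM, beside a median level of 76.7 FPKM over the 41 genes. Whether reads of Prosalpha1 were shared with a similar gene was not tested, so its value is not read as a level in the cells. Of 152 annotated pseudogenes 109 were silent (71.7%, beside 39.4% of all genes), 36 low, 6 moderate and 1 abundant. The longest transcript of protein-coding genes had a median of 1659 bases for abundant, 2129 for moderate, 1676.5 for low and 1412 for silent genes.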
